A study of Mus musculus with 26 samples.

Results

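The response to angiotensin II (AngII) in mesenteric arteries with intact Sphk1 was measured in 8 of the 26 libraries deposited for a study of smooth muscle Sphk1 in hypertension. The libraries were taken by their labels alone, as the 4 hypertensive and the 4 normotensive Sphk1 flox/flox libraries of this tissue. All 8 came from male C57BL6J mice that carried loxP-flanked Sphk1 on both alleles and lacked the Tagln-cre transgene. The 4 AngII mice received AngII at 490 ng/kg/min for 14 days from a subcutaneous osmotic minipump begun at 12 to 14 weeks of age, and the 4 controls are labelled Sham, with no further account of the sham procedure. No mice with unmodified Sphk1 alleles are among these groups. The labels give n = 4 mice for each group and name no mouse for a library, so p-values measure the spread between these libraries. The other 5 mesenteric libraries came from AngII-infused Tagln-cre mice that lack Sphk1 in smooth muscle (SMC KO-Sphk1). They entered the statistical fit so that all 13 mesenteric libraries shared an estimate of the spread. They thereby also entered the choice of genes tested (17513, or 16706 with the 8 libraries alone) and the scaling.

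AngII is the effector peptide of the renin-angiotensin system. It constricts arteries through receptors on smooth muscle, raises aldosterone, and during sustained infusion raises blood pressure. Mesenteric arteries are muscular resistance vessels that feed the gut, and under sustained pressure their wall remodels through changes in smooth muscle growth and in the matrix around the cells. Cells that enter division build up, in G2 and mitosis, a shared set of transcripts for cyclins, mitotic kinases, the kinetochore and the spindle. Promoters of that set often carry a cell cycle homology region (CHR), bound by the DREAM and B-MYB complexes, and CCAAT boxes, bound by NF-Y.

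After AngII, 32 genes rose and 0 fell among 17513 tested (edgeR quasi-likelihood test, Benjamini-Hochberg adjusted p below 0.05; 0.183% of genes called higher and 0% called lower). Of the 32, 24 belong to lists of mitotic genes, from Ccnb1 and Cdk1 to the spindle midzone protein gene Prc1, and 23 of these rose by over 2-fold. The other 8 include the matrix genes Col12a1, Postn and Ltbp2, the growth factor binding protein gene Igfbp2, the receptor gene Lrp8 and the thyroid hormone activating deiodinase gene Dio2. In each of the 32, all 4 AngII libraries lay above all 4 sham libraries, where 4.53% of all genes tested had AngII above sham and 4.23% had AngII below sham. At an unadjusted p below 0.05 there were 959 higher and 905 lower genes, and the median log2 difference over all genes was -0.000366. The 95% interval of the difference lay within 2-fold in both directions for 73.6% of genes. Other tools called more genes, as described further on, and leaving out libraries changed the count. It was 8, 10, 10 and 11 without sham replicates 1 to 4, 12, 15, 11 and 19 without AngII replicates 1 to 4, and 109 higher with 7 lower without SMC KO-Sphk1 replicate 3.

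**Figure D1:**
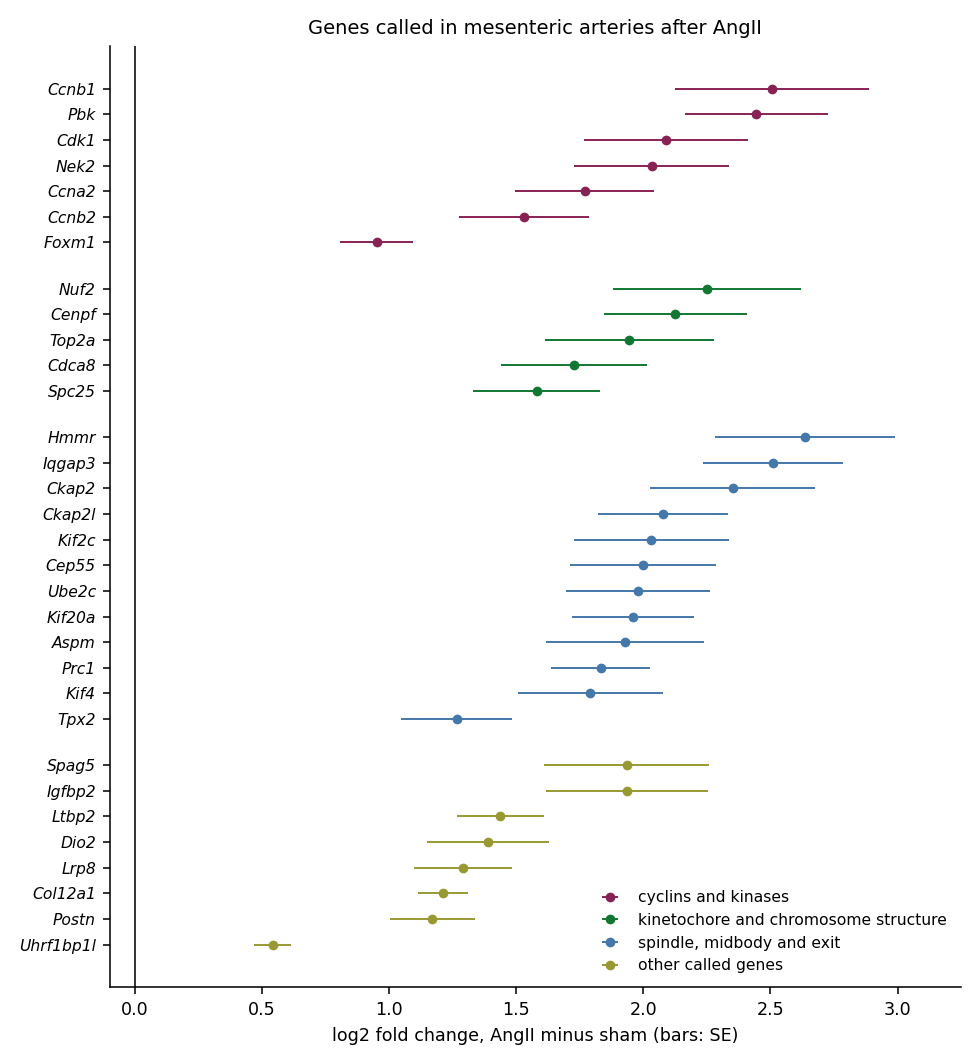
Log2 fold change (AngII minus sham, x axis; points, with bars for the standard error) of the 32 called genes, in rows grouped by role. All estimates lie to the right of 0, from 0.54 for Uhrf1bp1l to 2.64 for Hmmr.

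The libraries held between 17540532 and 28526435 counts in genes. Markers of the vessel wall were abundant in all 8. Smooth muscle markers (16 genes, such as Acta2, Myh11 and Tagln) summed to 47080.0 to 57520.0 CPM (counts scaled to a common library size with TMM factors) in sham and 44560.0 to 62380.0 CPM in AngII libraries. Endothelial markers (12 genes, such as Pecam1 and Vwf) summed to 4734 to 5074 CPM in sham and to 3564 to 4457 CPM in AngII libraries, so that the groups did not overlap. Of the 12 endothelial genes, 4 had no overlap, all with AngII below (4.23% of all genes), and edgeR called 0. At an unadjusted p below 0.05, 4 differed, all lower (905 of all 17513 genes were lower). DESeq2 and limma voom each called 0. The tight junction gene Cldn5 stood at 218, 219, 313 and 187 CPM in sham libraries 1 to 4 and at 168, 128, 157 and 135 CPM in AngII libraries 1 to 4 (-0.67 ± 0.208 on the log2 scale, SE; edgeR adjusted p = 0.278). In pooled tissue RNA, fewer cells of a type and less RNA per cell cannot be told apart.

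Single libraries also held RNA of neighbouring tissue. AngII replicate 1 stood apart in lymphoid RNA. The sum of 10 B cell markers was 172.8 CPM there against 8.41 to 17.4 CPM in the other 7 libraries, and that of 12 T and NK cell markers was 85.7 CPM against 5.10 to 12.8 CPM. Cd4 reached 33.8 CPM and Ms4a1 22.6 CPM in that library, and Glycam1, a product of lymph node venules, reached 12.1 CPM there and at most 0.0445 CPM elsewhere. The same library had 12.0% of its records not aligned, against 0.855 to 2.52% in the others. It was also the smallest of the 8, with 17540532 counts in genes.

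Gut epithelium RNA was concentrated in AngII replicate 2, where 16 markers summed to 806.9 CPM against 16.1 to 76.8 CPM in the other libraries. The crypt gene Olfm4 gave 401.8 CPM of that sum and the mucin gene Muc2 81.5 CPM. Exocrine pancreas RNA, from 18 markers such as Ctrb1 and Pnlip, summed to 124400 CPM in AngII replicate 4. The sum was 52550, 19680, 58.7 and 16690 CPM in sham replicates 1 to 4. In AngII replicates 1 to 3 it was 27.7, 263.5 and 81.7 CPM. Pancreatic RNA was therefore high in both groups, while lymphoid and gut RNA were each high in a single AngII library. Mesothelial RNA (8 markers) was high in AngII replicates 2 and 4, at 148.5 and 147.3 CPM, against 5.68 to 54.2 CPM in the other libraries. AngII replicate 3 stood apart in none of these 4 kinds of RNA. Its B and T cell sums were below those of every sham library, its gut sum was 76.8 CPM against a sham maximum of 68.4 CPM, and its pancreas sum was 81.7 CPM against a sham minimum of 58.7 CPM.

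**Figure D2:**
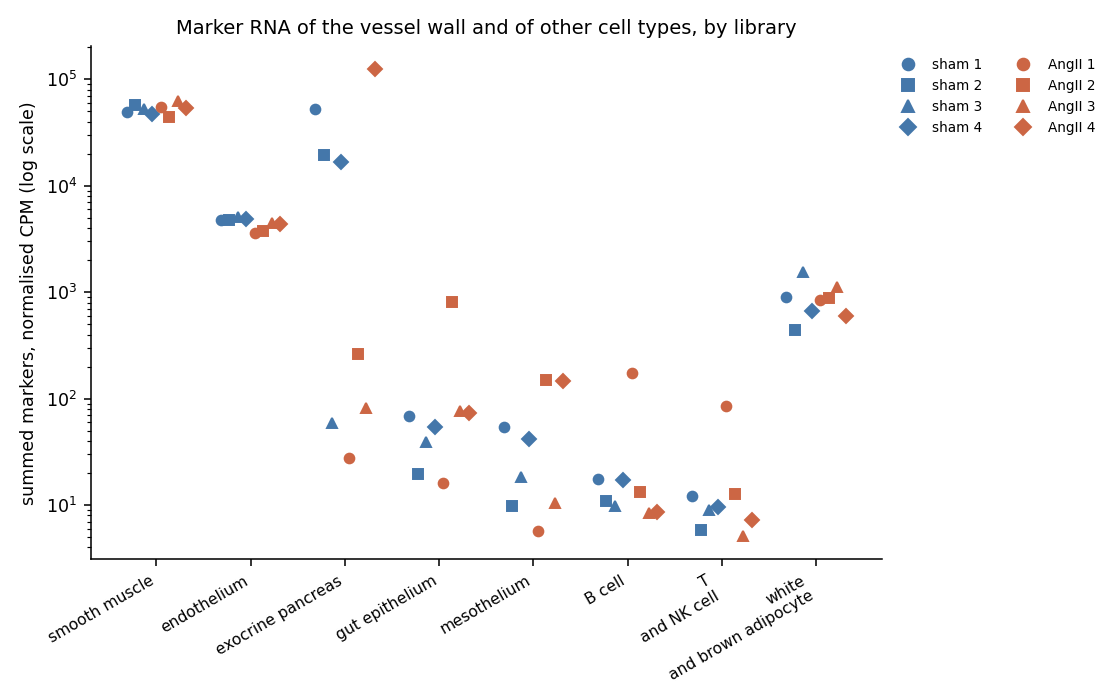
Summed normalised CPM (y axis, log scale) of marker lists for vessel wall cells and for neighbouring tissues (x axis) in each of the 8 libraries, blue for sham and orange for AngII, with the shape giving the replicate. Smooth muscle and endothelial sums stay within narrow ranges, while B and T cell RNA stands out in AngII 1, gut epithelium in AngII 2 and exocrine pancreas in AngII 4 and 3 of the sham libraries.

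Sphk1, the kinase that makes sphingosine-1-phosphate, is intact in all 8 libraries' mice. It stood at 9.42, 7.43, 9.40 and 8.07 CPM in sham libraries 1 to 4 and at 14.4, 17.8, 13.6 and 9.84 CPM in AngII libraries 1 to 4. Every AngII library lay above every sham library, with AngII replicate 4 close to the sham range. The log2 difference was 0.70 ± 0.204, short of the threshold once adjusted (edgeR adjusted p = 0.241). Taken alone, the difference gave p = 0.0286 in an exact two-sided permutation test, the smallest value that the 70 regroupings of 4 and 4 allow. Of 19 genes for sphingosine-1-phosphate handling and its receptors, edgeR called 0, and their median was 0.06. At an unadjusted p below 0.05, 3 of the 19 were higher and 1 lower (959 and 905 of all 17513 genes). DESeq2 called 1 higher and limma voom 0.

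The 24 mitotic genes that rose were compared at the level of their promoters, since the members of this set are known to share control elements. RefSeq promoter windows on build GRCm38.p6 (250 bases before to 50 after the start site) were found for 19 of the 24 and for 26 of all 32 called genes. The shown sequences are the 250 bases before the start of 4 mitotic genes and, beside them, of Ltbp2, a called matrix gene that holds neither element. Capitals mark each CHR, searched as TTTGAA or TTCGAA, and each CCAAT box, searched as CCAAT, all on both strands (TTCAAA and ATTGG in the other orientation). In Ube2c, a CCAAT and an ATTGG overlap. Cdk1 is at chr10:69352913-69353162 (minus strand), Ube2c at chr2:164769679-164769928 (plus strand), Top2a at chr11:99024190-99024439 (minus strand), Ckap2l at chr2:129297213-129297462 (minus strand) and Ltbp2 at chr12:84876492-84876741 (minus strand).
Cdk1: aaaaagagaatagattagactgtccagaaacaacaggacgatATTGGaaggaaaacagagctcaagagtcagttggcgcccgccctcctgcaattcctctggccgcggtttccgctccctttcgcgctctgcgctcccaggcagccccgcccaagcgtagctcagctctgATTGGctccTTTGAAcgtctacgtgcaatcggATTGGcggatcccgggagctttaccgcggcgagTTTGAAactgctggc
Ube2c: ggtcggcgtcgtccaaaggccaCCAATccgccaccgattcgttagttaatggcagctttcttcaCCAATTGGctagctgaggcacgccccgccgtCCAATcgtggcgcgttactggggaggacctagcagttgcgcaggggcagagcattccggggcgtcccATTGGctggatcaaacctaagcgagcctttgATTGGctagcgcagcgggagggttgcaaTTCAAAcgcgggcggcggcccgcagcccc
Top2a: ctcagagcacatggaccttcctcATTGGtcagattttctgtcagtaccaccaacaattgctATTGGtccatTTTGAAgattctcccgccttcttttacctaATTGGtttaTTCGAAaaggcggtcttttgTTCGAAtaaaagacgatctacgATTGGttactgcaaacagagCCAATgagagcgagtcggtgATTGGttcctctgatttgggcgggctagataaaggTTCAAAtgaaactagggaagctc
Ckap2l: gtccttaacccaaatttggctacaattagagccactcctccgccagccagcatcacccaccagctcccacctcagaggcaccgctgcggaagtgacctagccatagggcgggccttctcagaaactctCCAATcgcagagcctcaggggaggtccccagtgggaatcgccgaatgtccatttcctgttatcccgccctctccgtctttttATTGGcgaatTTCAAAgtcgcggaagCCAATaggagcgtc
Ltbp2: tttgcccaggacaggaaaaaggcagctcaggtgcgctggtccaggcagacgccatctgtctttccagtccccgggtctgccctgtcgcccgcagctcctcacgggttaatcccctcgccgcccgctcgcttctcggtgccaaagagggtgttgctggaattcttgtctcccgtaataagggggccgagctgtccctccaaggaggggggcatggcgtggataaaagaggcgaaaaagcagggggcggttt

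In these sequences the CHR nearest to the start begins at position -15 in Cdk1, -29 in Ube2c, -23 in Top2a and -30 in Ckap2l, counted so that -1 is the base just before the start. In each, at least 1 CCAAT box lies upstream of it or close by, at -48, -57, -58 and -14. Over the full windows, a CHR was present in 16 of the 19 mitotic called genes (84.2%), where 21.7% of the 27025 genes with a promoter in the table and 19.2% of its 32851 promoters had a match. Ccnb1, Nek2 and Nuf2 had none in this window. In 14 of the 16 the nearest CHR began within 50 bases of the start, and the others were Ckap2 at -101 and Kif2c at -103. A CCAAT box was present in 15 of the 19 (78.9%; 41.1% of all genes and 37.4% of all promoters), and both elements in 13 (68.4%; 8.6% of all genes). Over the mitotic lists as a whole, called or not, a CHR was present in 51 of 65 members that had a promoter (78.5%). A list of DNA replication and G1/S genes had a CHR in 8 of 37 (21.6%) and a CCAAT box in 23 of 37 (62.2%). Of the other called genes with a promoter, Igfbp2, Postn and Spag5 had a CHR (3 of 7). A match describes the letters in the window and does not show that a factor was bound.

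Cyclins and mitotic kinases, the enzymes that drive entry into mitosis, formed the first group of called genes. Of 19 listed, 7 rose (Ccnb1, Pbk, Cdk1, Nek2, Ccna2, Ccnb2 and Foxm1), 0 fell, and the median log2 difference was 1.61. Ccnb1, which encodes cyclin B1, stood at 0.390, 1.03, 0.567 and 0.427 CPM in sham libraries 1 to 4 and at 3.28, 4.00, 2.99 and 3.52 CPM in AngII libraries 1 to 4. The lowest AngII library lay well above sham replicate 2, the highest of its group. The difference was 2.51 ± 0.381 (edgeR adjusted p = 0.0206). Its partner kinase Cdk1 had 0.744, 1.07, 0.944 and 0.660 CPM in sham and 3.73, 4.48, 3.51 and 2.85 CPM in AngII libraries, again with a clear gap between the groups, and rose by 2.09 ± 0.321 (edgeR adjusted p = 0.0217). Cyclin A2 (Ccna2) was measured at 2.73, 2.51, 2.55 and 2.29 CPM in sham and at 10.1, 9.47, 6.66 and 8.15 CPM in AngII libraries. The sham values were close together and the AngII values spread from replicate 3, the lowest, to replicate 1, for a rise of 1.77 ± 0.273 (edgeR adjusted p = 0.0218).

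Pbk, a mitotic kinase of proliferating cells, stood at 0.531, 0.952, 0.519 and 0.931 CPM in sham and at 4.40, 4.55, 3.63 and 3.52 CPM in AngII libraries and rose by 2.45 ± 0.283 (edgeR adjusted p = 0.00595). Foxm1, the transcription factor that switches on many G2 and mitotic genes, changed less but with little spread. It stood at 2.23, 2.32, 2.27 and 2.44 CPM in sham and at 4.79, 4.58, 4.47 and 4.10 CPM in AngII libraries, a rise of 0.95 ± 0.144 (edgeR adjusted p = 0.0206). The centrosomal kinase gene Nek2 rose by 2.03 ± 0.305 and the cyclin B2 gene Ccnb2 by 1.53 ± 0.256. Among members not called, the spindle checkpoint kinase gene Bub1 had 2.15, Aurka 1.34 and Plk1 0.99, each with AngII above sham in every library, and the phosphatase gene Cdc25b had -0.22 with overlap.

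The second group holds genes of the kinetochore, which ties chromosomes to the spindle, and of chromosome structure. Of 29 listed, 5 rose (Nuf2, Cenpf, Top2a, Cdca8 and Spc25), 0 fell, all 29 estimates were above 0, and the median was 1.45 (1.24 without AngII replicate 1). Top2a, the topoisomerase that untangles sister chromatids, stood at 3.83, 3.35, 4.58 and 3.65 CPM in sham and at 17.1, 17.6, 12.7 and 11.9 CPM in AngII libraries. AngII replicates 1 and 2 were higher than 3 and 4, and the lowest of them was still above every sham library; the rise was 1.94 ± 0.332 (edgeR adjusted p = 0.0406). Cenpf, a kinetochore protein of G2 and mitosis, had 0.744, 1.07, 1.04 and 1.67 CPM in sham and 5.34, 5.74, 4.59 and 4.10 CPM in AngII libraries and rose by 2.13 ± 0.281 (edgeR adjusted p = 0.0114).

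Nuf2 and Spc25 encode subunits of the NDC80 complex, the kinetochore's contact with microtubules. Nuf2 stood at 0.319, 0.648, 0.803 and 0.582 CPM in sham and at 2.51, 3.32, 2.83 and 2.54 CPM in AngII libraries, with a rise of 2.25 ± 0.370 (edgeR adjusted p = 0.0328). Spc25 rose by 1.58 ± 0.251, and Cdca8 (borealin, of the chromosomal passenger complex) by 1.73 ± 0.286. The other NDC80 genes, Ndc80 (1.46) and Spc24 (1.83), had no overlap between the groups and were not called. The proliferation marker gene Mki67 had 3.72, 3.70, 3.49 and 4.42 CPM in sham and 16.5, 17.7, 13.2 and 14.2 CPM in AngII libraries. The groups were far apart, yet its difference of 2.00 ± 0.381 did not pass edgeR's test (adjusted p = 0.0674); it passed with DESeq2 and limma voom. Cenpa (0.15) and Dsn1 (0.06), a centromere histone gene and a kinetochore gene, had values near 0 with overlap.

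The third and largest group builds the spindle and the midbody and ends mitosis. Of 33 listed, 12 rose (Hmmr, Iqgap3, Ckap2, Ckap2l, Kif2c, Cep55, Ube2c, Kif20a, Aspm, Prc1, Kif4 and Tpx2), 0 fell, and the median was 1.69. Prc1, which bundles microtubules at the midzone, had the smallest adjusted p of the mitotic genes together with Iqgap3. It stood at 2.80, 3.20, 1.89 and 2.91 CPM in sham and at 9.74, 9.23, 10.5 and 9.04 CPM in AngII libraries, where all 4 AngII values were close together. The rise was 1.83 ± 0.195 (edgeR adjusted p = 0.00470). Its partner on the midzone, the kinesin gene Kif4, rose by 1.79 ± 0.285, and Kif20a, a kinesin of cytokinesis, had 1.42, 2.02, 0.991 and 1.20 CPM in sham and 5.18, 4.89, 6.14 and 5.79 CPM in AngII libraries and rose by 1.96 ± 0.239 (edgeR adjusted p = 0.00642).

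Hmmr, a hyaluronan receptor that also binds the spindle, had the largest change of the 32 called genes. It stood at 0.354, 1.07, 0.944 and 0.504 CPM in sham and at 4.68, 4.45, 4.67 and 4.10 CPM in AngII libraries, a 6.22-fold rise (2.64 ± 0.354; edgeR adjusted p = 0.0114). Iqgap3, a scaffold of dividing cells, had 0.708, 1.49, 0.897 and 0.776 CPM in sham and 4.79, 6.39, 5.74 and 5.17 CPM in AngII libraries and rose by 2.51 ± 0.276 (edgeR adjusted p = 0.00470). In both, the AngII libraries differed little from each other and the sham libraries were all low.

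Ckap2l, a mitotic spindle protein gene, had 0.779, 1.22, 1.04 and 1.24 CPM in sham and 3.23, 4.96, 5.18 and 4.72 CPM in AngII libraries and rose by 2.08 ± 0.255. Ube2c, the ubiquitin-conjugating enzyme of the anaphase-promoting complex, had 0.886, 0.876, 0.567 and 0.737 CPM in sham and 2.23, 3.25, 3.35 and 3.34 CPM in AngII libraries, a rise of 1.98 ± 0.283 (edgeR adjusted p = 0.0154). In both genes AngII replicate 1 was the lowest of its group, apart from the other 3. Cep55 (2.00 ± 0.286), Kif2c (2.03 ± 0.303), Aspm (1.93 ± 0.309), Ckap2 (2.35 ± 0.325) and the spindle assembly factor gene Tpx2 (1.27 ± 0.219) also rose. Spag5 (astrin), another spindle protein gene that was in no list, rose by 1.94 ± 0.325 (edgeR adjusted p = 0.0351). Not called were the cytokinesis genes Racgap1 (1.07; edgeR adjusted p = 0.174), Kif23 (1.26; 0.237) and Nusap1 (1.32; 0.144). Pttg1, the securin gene, was the only member of these lists with AngII below sham in every library (-0.45).

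**Figure D3:**
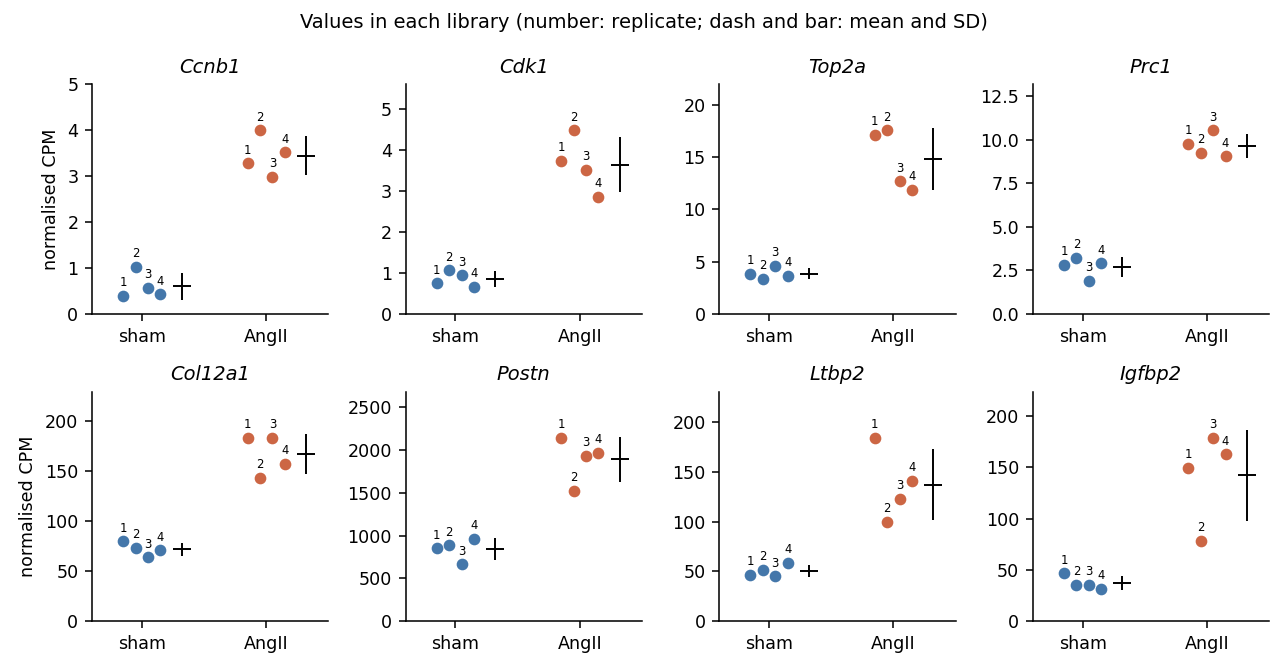
Normalised CPM (y axis, from 0) in each of the 4 sham and 4 AngII libraries (x axis; numbers are replicates) for 4 mitotic genes, above, and 4 other called genes, below; dashes and bars are means and SD. In each panel the lowest AngII library is above the highest sham library.

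Across the 81 mitotic genes together, 24 rose, 0 fell, and the median log2 difference was 1.58. In 68 of them all AngII libraries were above all sham libraries (4.53% of all genes), and in 1, Pttg1, below. Their mean level was 0.416, 0.447, 0.340 and 0.426 log2 CPM in sham libraries 1 to 4 and 1.88, 1.82, 1.63 and 1.63 log2 CPM in AngII libraries 1 to 4. The gap between the groups was wider than the range within either group. Many members had few counts, and their fold changes rest on small numbers. Sham means were 0.367 CPM for Kif2c, 0.588 for Nuf2, 0.603 for Ccnb1 and 0.717 for Hmmr. The AngII libraries with lymphoid RNA (replicate 1) and gut RNA (replicate 2) had the highest mean levels, and replicates 3 and 4 had lower, near-equal ones. The part of such RNA in these levels was not tested. With a lymphoid covariate edgeR called 30 members, and with a gut and pancreas covariate 16. Without AngII replicate 1 the median was 1.51. The number of members called followed the fit: 53 with DESeq2 (1.29% of 17848 genes called higher and 0.336% lower), 54 with limma voom (1.12% higher and 0.303% lower) and 37 when edgeR was fitted to the 8 libraries alone (0.431% higher and 0.0359% lower). With edgeR it was 6, 7, 7 and 8 without sham replicates 1 to 4, 9, 9, 8 and 14 without AngII replicates 1 to 4, and 45 without SMC KO-Sphk1 replicate 3.

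DNA replication genes gave no call with edgeR. Of 47 genes for replication and the G1/S step, edgeR called 0, and the median was 0.18. At an unadjusted p below 0.05, 10 were higher and 1 lower (959 and 905 of all 17513 genes). DESeq2 called 1 and limma voom 2, all higher. Averaged over the 47 genes, sham libraries lay at 2.22 to 2.43 and AngII libraries at 2.44 to 2.79 log2 CPM, without overlap. Rad51ap1, a recombination cofactor gene, had 0.425, 0.686, 0.472 and 0.698 CPM in sham and 2.51, 1.20, 1.71 and 1.38 CPM in AngII libraries (1.56 ± 0.376; edgeR adjusted p = 0.152). The thymidine kinase gene Tk1 stood at 1.17, 1.07, 1.09 and 1.32 CPM in sham and 4.01, 3.25, 3.11 and 2.81 CPM in AngII libraries (1.50 ± 0.446; edgeR adjusted p = 0.252), and was called in the fit of the 8 libraries alone. In both genes the groups were apart, with few counts behind each value, as in many of the called mitotic genes. Cyclin E2 (Ccne2) gave 0.74 ± 0.202, while the replication helicase gene Mcm2 gave 0.06 and the sliding clamp gene Pcna 0.19. Among 20 CDK inhibitors and p53 targets, edgeR called 0 (2 higher and 1 lower at an unadjusted p below 0.05; 0 with DESeq2 and 1 higher with limma voom), and the median was -0.03. The CDK inhibitor gene Cdkn1a had 48.4, 45.9, 57.6 and 40.5 CPM in sham and 71.2, 70.2, 63.7 and 59.8 CPM in AngII libraries, without overlap (0.46 ± 0.173; edgeR adjusted p = 0.371), and Cdkn1c had -0.50 ± 0.166 with overlap.

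Genes of the extracellular matrix, the load-bearing scaffold of the vessel wall, made up a further set among the called genes. Col12a1, a collagen that decorates fibrils, had the smallest adjusted p of all genes. It stood at 79.7, 72.9, 63.6 and 70.7 CPM in sham and at 183, 143, 183 and 157 CPM in AngII libraries. Sham values were close together and far below the lowest AngII library, for a rise of 1.21 ± 0.0980 (edgeR adjusted p = 0.000456; 1.16 without AngII replicate 1). It was the 1 called of 22 collagens, whose median was 0.42. At an unadjusted p below 0.05, 13 collagens were higher and 1 lower (959 and 905 of all 17513 genes). DESeq2 called 2 higher and limma voom 5. Among those not called, Col8a1 of the vessel wall had 0.78 ± 0.202 and the fibrillar Col3a1 0.61 ± 0.213 and Col1a1 0.52 ± 0.206 (edgeR adjusted p = 0.190, 0.338 and 0.402).

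Postn encodes periostin, a matricellular protein laid down in injured and loaded tissue. It stood at 853, 888, 664 and 963 CPM in sham and at 2145, 1527, 1933 and 1970.0 CPM in AngII libraries. AngII replicate 2 was the lowest of its group and still above sham replicate 4, the highest of the other, and the rise was 1.17 ± 0.166 (edgeR adjusted p = 0.0154; 0.0714 without AngII replicate 1, when the change was 1.10). It was the 1 called of 23 matricellular genes, whose median was 0.34. At an unadjusted p below 0.05, 9 of these were higher and 1 lower (959 and 905 of all 17513 genes). DESeq2 called 6 higher and 1 lower, and limma voom 6 higher. The fibronectin gene Fn1 had 2321, 2548, 1499 and 1942 CPM in sham and 4737, 3373, 5741 and 4491 CPM in AngII libraries, apart in every library (1.14 ± 0.206), and missed edgeR's threshold (adjusted p = 0.0569). Tenascin C (Tnc) had 1.02 ± 0.278, Thbs1 0.88 ± 0.201 and Ccn2 0.86 ± 0.242, all without overlap and not called by edgeR (adjusted p = 0.210, 0.132 and 0.221). Fbln7 was below sham in every AngII library (-0.49 ± 0.107; edgeR adjusted p = 0.125) and is the gene that DESeq2 called lower.

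Ltbp2 encodes a microfibril protein related to the latent TGF-beta binding proteins. It stood at 46.7, 51.8, 45.1 and 58.4 CPM in sham and at 184, 99.8, 123 and 141 CPM in AngII libraries, from replicate 2, the lowest, to replicate 1. The rise was 1.44 ± 0.172 (edgeR adjusted p = 0.00642; 1.26 without AngII replicate 1). Of 21 elastic fibre and crosslinking genes it was the 1 called, and the median was 0.22. At an unadjusted p below 0.05, 4 of the 21 were higher and 0 lower (959 and 905 of all 17513 genes). DESeq2 and limma voom each called 3 higher. The crosslinking enzyme gene Loxl2 had 117, 89.9, 58.0 and 89.7 CPM in sham and 178, 161, 202 and 186 CPM in AngII libraries. These groups were apart, with sham replicate 3 well below its group, and the difference of 1.04 ± 0.190 missed the threshold (edgeR adjusted p = 0.0612); Lox had 0.73 ± 0.162 (0.126). Elastin itself (Eln) had 0.49 with overlap.

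In the other matrix lists edgeR called no gene. Their counts at an unadjusted p below 0.05 are to be read beside 959 higher and 905 lower of all 17513 genes. Of 23 collagen maturation genes, 5 were higher and 0 lower at an unadjusted p below 0.05 (2 higher with each of DESeq2 and limma voom), with a median of 0.07. They were led by the prolyl hydroxylase gene P4ha3 (0.87 ± 0.163; edgeR adjusted p = 0.0643) and the lysyl hydroxylase gene Plod2 (0.70 ± 0.163; 0.144). Of 24 proteoglycan and hyaluronan genes, 2 were higher and 0 lower (1 with each other tool), with a median of 0.02. The aggrecan gene Acan had 0.354, 0.571, 0.755 and 0.698 CPM in sham and 2.12, 1.20, 3.19 and 2.18 CPM in AngII libraries (1.86 ± 0.361; 0.0730). Of 23 laminin, nidogen and integrin genes, 5 were higher and 1 lower (1 with DESeq2 and 2 with limma voom, all higher). The integrin genes Itga9 (0.64 ± 0.118; 0.0628) and Itga5 (0.62 ± 0.189; 0.276) led these, without overlap between the groups. Of 28 matrix proteases and inhibitors, 8 were higher and 0 lower (2 higher with each other tool), with 0.61 ± 0.139 for Adamts12 and 0.94 ± 0.254 for the protease inhibitor gene Timp1.

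Of the remaining called genes, Igfbp2 binds insulin-like growth factors outside the cell. It stood at 46.7, 35.2, 35.7 and 31.2 CPM in sham and at 149.6, 78.0, 179 and 163 CPM in AngII libraries. AngII replicate 2, the library with gut RNA, lay between the sham libraries and the other AngII libraries, and the rise was 1.94 ± 0.318 (edgeR adjusted p = 0.0328). It was the 1 called of 36 growth factor and receptor genes, whose median was -0.002. At an unadjusted p below 0.05, 5 of the 36 were higher and 2 lower (959 and 905 of all 17513 genes). DESeq2 called 3 higher and limma voom 1. Dio2, the deiodinase that activates thyroid hormone, had 26.2, 28.8, 14.6 and 21.7 CPM in sham and 67.2, 45.1, 74.1 and 52.7 CPM in AngII libraries. It rose by 1.39 ± 0.240 (edgeR adjusted p = 0.0440) and was the only gene of the 32 that lost its call when edgeR was fitted to the 8 libraries alone.

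Lrp8, a lipoprotein receptor family member that binds reelin and apolipoprotein E, stood at 1.31, 1.68, 1.18 and 1.79 CPM in sham and at 4.06, 3.18, 4.15 and 3.21 CPM in AngII libraries and rose by 1.29 ± 0.193 (edgeR adjusted p = 0.0204). Uhrf1bp1l, which encodes a lipid transfer protein family member, had 55.9, 58.6, 52.5 and 54.2 CPM in sham and 89.4, 78.0, 79.1 and 75.4 CPM in AngII libraries. It had the smallest change of the called genes, 0.54 ± 0.0720, with a narrow spread in both groups (edgeR adjusted p = 0.0114).

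Cholesterol synthesis and sterol regulation had all 21 estimates above 0, with a median of 0.40, and edgeR called 0 of the 21. At an unadjusted p below 0.05, 14 were higher and 0 lower (959 and 905 of all 17513 genes). DESeq2 called 5 and limma voom 7, all higher. In 8, AngII was above sham in every library (4.53% of all genes). The squalene epoxidase gene Sqle, of the committed sterol pathway, stood at 15.6, 18.7, 20.5 and 18.5 CPM in sham and at 32.9, 26.9, 35.2 and 32.9 CPM in AngII libraries (0.80 ± 0.163; edgeR adjusted p = 0.0881). The groups were apart. The sterol demethylase gene Cyp51 (0.66 ± 0.159) also had no overlap, while the master regulator gene Srebf2 had 0.18 and Srebf1 0.01, with overlap. Averaged over the 21 genes, sham libraries lay at 4.28 to 4.59 and AngII libraries at 4.69 to 4.96 log2 CPM, and the median difference was 0.37 without AngII replicate 1.

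**Figure D4:**
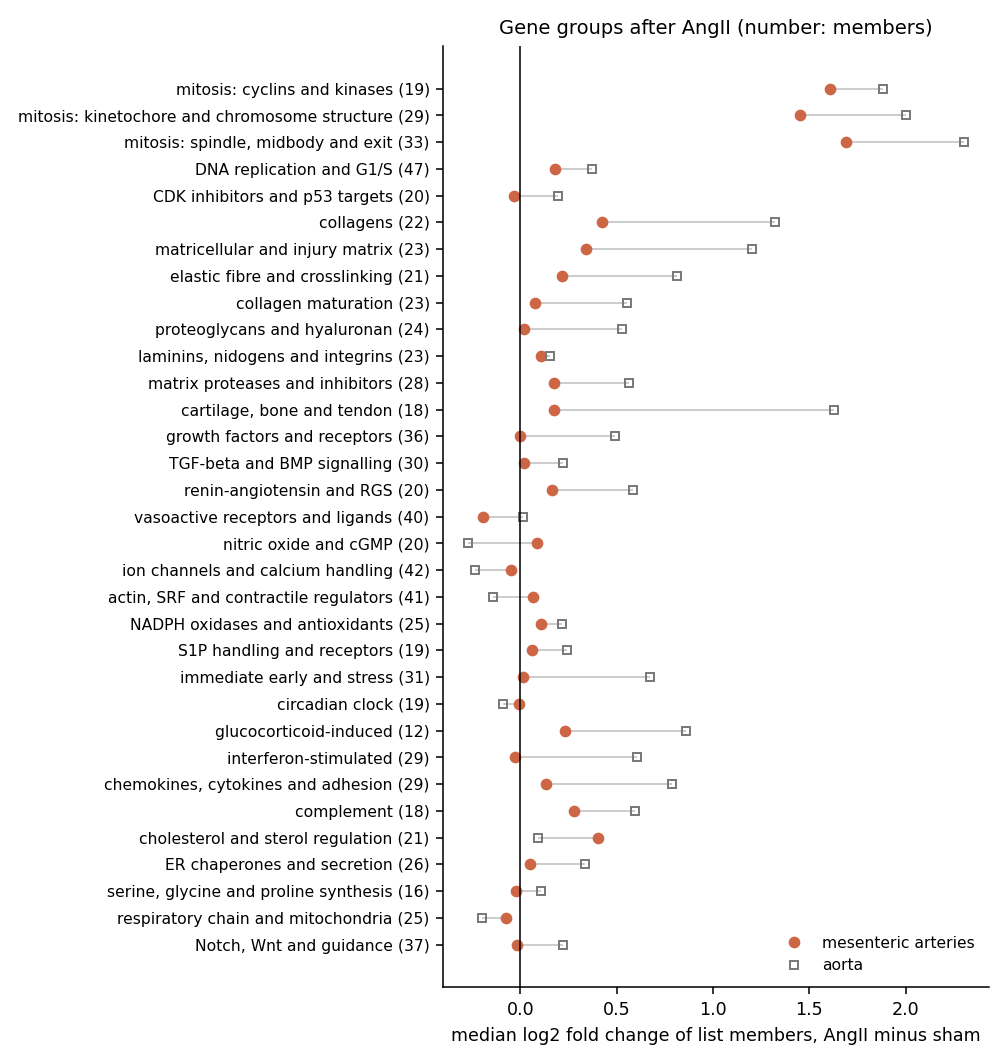
Median log2 fold change (AngII minus sham, x axis) of the tested members of 33 gene lists (rows, with the number of members), as orange points for mesenteric arteries and open squares for the same members in the aorta. The 3 mitosis lists lie between 1.45 and 1.69 in mesenteric arteries, cholesterol and sterol regulation is at 0.40, and the other lists lie between -0.19 and 0.42.

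Genes of vascular tone gave no call with edgeR. Their counts at an unadjusted p below 0.05 stand beside 959 higher and 905 lower of all 17513 genes. Of 40 vasoactive receptors and ligands, 3 were higher and 4 lower at an unadjusted p below 0.05 (2 higher with each of DESeq2 and limma voom), with a median of -0.19 and 12 estimates above 0. The serotonin receptor genes Htr2a and Htr1b had 0.70 ± 0.161 and 1.02 ± 0.264, with Htr2a at 11.8, 15.3, 12.1 and 14.2 CPM in sham and 25.1, 16.2, 22.7 and 23.1 CPM in AngII libraries. The adrenoceptor gene Adra1d had -0.62 ± 0.225, with AngII below in every library (edgeR adjusted p = 0.137, 0.191 and 0.355). Of 20 genes of the renin-angiotensin system and of RGS proteins, 2 were higher and 2 lower (0 with DESeq2; 1 higher and 1 lower with limma voom). They include the mineralocorticoid receptor gene Nr3c2 (-0.31 ± 0.0850), Rgs2, which shortens AngII receptor signalling (-0.38 ± 0.116), and the calcineurin regulator gene Rcan1 (0.34 ± 0.104).

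Of 20 nitric oxide and cGMP genes, 0 were higher and 1 lower at an unadjusted p below 0.05, and no tool called any. Over all 17513 genes, 959 were higher and 905 lower at that threshold, here and for the next lists. Of 42 ion channel and calcium handling genes, 1 was higher and 4 lower (1 lower with each of DESeq2 and limma voom), led by the store-operated channel gene Orai1 (-0.36 ± 0.0950), the potassium channel gene Kcna2 (-0.44 ± 0.121) and the calcium pump regulator gene Pln (-0.57 ± 0.169). Of 41 actin and contractile genes, 6 were higher and 1 lower at an unadjusted p below 0.05 (2 higher with each of DESeq2 and limma voom), with 0.48 ± 0.124 for the scaffold gene Pdlim5, 0.62 ± 0.179 for Csrp2 and 0.63 ± 0.204 for myocardin (Myocd), the smooth muscle coactivator. Smooth muscle markers themselves had 1 higher and 1 lower of 16 (0 with DESeq2, 1 lower with limma voom) and a median of 0.11.

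Stress and immune lists also held no call by edgeR. Beside their counts at an unadjusted p below 0.05, all 17513 genes had 959 higher and 905 lower. Of 31 immediate early and stress genes, 4 were higher and 3 lower at an unadjusted p below 0.05 (1 lower with DESeq2, 0 with limma voom). Fosb stood at 12.2, 20.2, 28.8 and 14.2 CPM in sham and at 8.85, 8.31, 7.38 and 11.1 CPM in AngII libraries, below in every library and with a wide sham spread (-1.08 ± 0.280; edgeR adjusted p = 0.191). Of 29 interferon-stimulated genes, 0 were higher and 1 lower, with 0 by the other tools and a median of -0.03 that was -0.39 without AngII replicate 1. Of 29 chemokine, cytokine and adhesion genes, 3 were higher and 0 lower (1 with each other tool). Il6 had 0.708, 0.724, 0.519 and 0.233 CPM in sham and 1.61, 1.81, 1.32 and 1.11 CPM in AngII libraries (1.41 ± 0.392; 0.219). Macrophage markers (12 genes) had a median of 0.86 that was 0.46 without AngII replicate 1, and 0 were called by any of the 3 tools or had an unadjusted p below 0.05. Their sum was 925.1 CPM in that library, 364 to 590.2 CPM in the other AngII libraries and 252.8 to 511.2 CPM in sham. Of 30 TGF-beta and BMP signalling genes, 5 were higher and 4 lower (2 higher with DESeq2 and 1 with limma voom), with a median of 0.02, and of 37 Notch, Wnt and guidance genes, 2 were higher and 3 lower (0 with each other tool). Neuron and Schwann cell markers (12 genes) had a median of -0.34, with 0 higher and 2 lower (0 with each other tool). Respiratory chain genes (25) had 5 estimates above 0 and a median of -0.07, with 0 called by any tool or at an unadjusted p below 0.05.

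DESeq2 called 230 genes higher and 60 lower of 17848, and limma voom 197 and 53 of 17513. Both called all 32 genes that edgeR called, and together they called a further 166 that edgeR did not, 130 higher and 36 lower, with edgeR adjusted p from 0.0537 to 0.267. Among these, in genes with a mean of at least 1 log2 CPM and no overlap, 10 with the largest decrease were taken. The nucleic acid binding protein gene Ybx2 stood at 9.99, 15.2, 16.5 and 11.8 CPM in sham and at 4.23, 5.81, 8.21 and 6.41 CPM in AngII libraries (-1.11 ± 0.240; edgeR adjusted p = 0.119). The secretin receptor gene Sctr had 6.41, 10.8, 9.54 and 10.3 CPM and 3.06, 4.96, 4.75 and 5.79 CPM in the same order (-0.99 ± 0.231; 0.141), and Trib3, a pseudokinase induced by stress, 10.7, 7.73, 12.8 and 10.9 CPM and 4.79, 5.85, 5.62 and 4.90 CPM (-0.99 ± 0.247; 0.167). In each the AngII libraries were all below the sham libraries by a modest gap.

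The other 7 had -1.03 ± 0.252 for the transporter gene Slc16a11, -0.88 ± 0.197 for the ephrin receptor gene Epha1, -0.87 ± 0.236 for the sarcomere gene Tcap and -0.84 ± 0.184 for the protease gene Klk8. They ended with -0.83 ± 0.184 for Wscd1, -0.79 ± 0.158 for the fatty acid binding protein gene Fabp7 and -0.79 ± 0.210 for Tmem158. Among the 10 with the largest increase on the same rule, besides mitotic genes and Fn1 and Loxl2, were the glycosyltransferase gene Gcnt4 (4.50, 3.31, 1.79 and 4.04 CPM in sham and 8.79, 7.76, 8.17 and 10.4 CPM in AngII libraries; 1.36 ± 0.272) and the Ras association domain gene Rassf6 (1.32 ± 0.337). Neither passed edgeR's test (adjusted p = 0.0853 and 0.187).

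When edgeR was fitted to the 8 libraries alone, it called 72 genes higher and 6 lower of 16706. The 72 contain 31 of the 32. The 6 lower were Cirbp (a cold-inducible RNA-binding protein gene; -0.65 ± 0.092), Mapk12 (-0.47 ± 0.069), Wscd1 (-0.82 ± 0.125), Tcap (-0.85 ± 0.134), Klhdc9 (-1.23 ± 0.197) and Trib3 (-0.98 ± 0.162), named here after their values were seen. Without AngII replicate 1, the library with lymphoid RNA, the log2 changes of the 32 genes were 0.876 to 1.06 times those with it, and 12 kept their call with adjusted p up to 0.166 for the rest. The 12 were Col12a1, Ltbp2, Uhrf1bp1l and, among mitotic genes, Prc1, Iqgap3, Pbk, Kif20a, Ckap2l, Cenpf, Hmmr, Ckap2 and Ube2c. Without that library DESeq2 and limma voom called 158 and 136 genes higher, including all 32, and 18 and 39 lower.

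The mesenteric response was set beside that of the aorta of mice with the same genotype and treatment by an interaction over all 26 libraries, taken as independent, though the labels name the same numbers of mice for both tissues. Of 18520 genes, 126 had a higher (0.68%) and 308 a lower (1.66%) effect in mesenteric arteries; with library size alone as the scaling, the split was 188 and 183. None of the 32 called genes differed between the tissues with edgeR (lowest adjusted p = 0.0586, for Col12a1 at -1.36), though 28 had the smaller estimate in mesenteric arteries. At an unadjusted p below 0.05, 2 were lower, and DESeq2 called 1 lower, Col12a1. All but Uhrf1bp1l (0.38 in the aorta; adjusted p = 0.0763) were also called higher in the aorta, where 14.7% of genes were. Of the 81 mitotic genes, 0 differed with edgeR (9 lower at an unadjusted p below 0.05; 4 lower with DESeq2), with medians of 1.58 in mesenteric arteries and 2.15 in the aorta. The count of genes that differed depended on single libraries. It was 56 higher and 196 lower without aortic AngII replicate 1, 211 and 417 without aortic AngII replicate 4, and 80 and 245, 79 and 217, 71 and 213, and 64 and 163 without aortic sham replicates 1 to 4. Among mesenteric libraries it was 73 and 179 without AngII replicate 1, 75 and 219 without AngII replicate 3, and 56 and 211, 63 and 217, and 69 and 201 without sham replicates 1, 3 and 4.

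Collagens and other matrix genes did differ between the tissues. Of 22 collagens, 11 had a lower effect in mesenteric arteries, beside 308 of all 18520 genes (1.66%). Among the 11 were Col1a1 (-1.92 for mesenteric minus aortic log2 effect), Col3a1 (-1.78) and Col8a1 (-3.29). A lower effect was also found for 8 of 23 collagen maturation genes, with P4ha3 at -3.07. It was found for 8 of 28 matrix proteases and inhibitors, with Timp1 at -1.50, and for 6 of 23 matricellular genes, with Thbs1 at -2.14. With library size alone as the scaling, the total of lower effects over all genes was 183, and the list counts were not followed there. Sphk1 was also among the genes with a lower effect (-1.33 ± 0.351; edgeR adjusted p = 0.0440, with 0.70 in mesenteric arteries and 2.02 in the aorta). Both subunits of soluble guanylate cyclase, the nitric oxide receptor, had a higher effect in mesenteric arteries (0.98 for Gucy1a1 and 0.88 for Gucy1b1). Gucy1a1 was at -0.24 in mesenteric arteries, not called, and lower after AngII in the aorta (-1.23). The largest difference by p among genes with a higher mesenteric effect was in Scube3, a secreted signalling protein gene. It had 134.5 and 251.2 CPM in mesenteric sham and AngII libraries on average (0.90 ± 0.175, edgeR adjusted p = 0.0730) and -1.34 ± 0.210 in the aorta. Next by p were Fryl (0.85 for mesenteric minus aortic), Unc5c (1.5), Ypel2 (0.83) and AI838599 (1.83). The 5 lower effects with the smallest p were Ttc9 (-4.23), Psat1 (-1.61), Cthrc1 (-5.30), Prnp (-1.07) and Megf10 (-3.66). The 21 cholesterol genes had a median of 0.40 in mesenteric arteries and of 0.09 in the aorta, a difference that was not tested for the list.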

How the data were processed

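RNA of mesenteric arteries was sequenced from poly(A) libraries (NEBNext Ultra II Directional, paired reads, per the labels' protocols). The authors deposited raw counts per Ensembl gene for each library. The submitters' processing notes name cutadapt, HISAT2, HTSeq and the build GRCm39. Versions, annotation release and strand setting are not given in the sources used here, so reads of overlapping or antisense genes may not be told apart. Lines of HTSeq's summary were left out of all tests. In the 8 libraries they held 7.15 to 8.65% (no feature), 1.21 to 1.58% (ambiguous), 2.76 to 3.35% (low quality), 0.855 to 12.0% (not aligned) and 4.82 to 13.0% (not unique) of the records. Symbols were found for 52081 of 55414 gene identifiers.

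Counts were filtered (filterByExpr), scaled (TMM) and tested with edgeR 4.0.16 (quasi-likelihood, Benjamini-Hochberg adjusted p below 0.05 over all genes) in R 4.3.3. The 13 mesenteric libraries were fitted by group, and the tissue difference by group over 26 libraries. The tests were checked on simulated data. Values per library are CPM with TMM factors, ± is the SE of a log2 difference, and log2 levels use a prior count of 2. DESeq2 1.42.0, limma 3.58.1 (voom with sample weights), other scalings, filters, covariates for other tissues' RNA, a replicate block and leaving out libraries were alternatives. No 2 of the 4 sham or 4 AngII mesenteric libraries agreed within sampling noise (chi-square per degree of freedom of 18.0 or more).

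The members and gene lists (33 groups and 21 marker lists) were chosen with earlier results of these data known. Named genes are Sphk1, the called genes, up to 4 called or 3 uncalled members of each list by p, 10 genes each way that only DESeq2 and voom called, and 5 genes each way for the tissue difference. Other genes were named after their values were seen. Promoters came from RefSeq on GRCm38.p6, matched by symbol, and coordinates were not mixed with GRCm39.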

Additional observations from a re-analysis of the deposited data

Results flagged for a closer look

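In the groups of 4, 156 sets of values were checked for a library far from the other 3, and 10 (6.41%) had one, where chance gives about 1 in 20. Ube2c was 2.23 CPM in AngII replicate 1, below the other AngII libraries (3.25 to 3.35 CPM), and Racgap1 was 6.19 CPM in AngII replicate 4, below its group (8.13 to 8.38 CPM). AngII replicate 1 also stood apart in B cell markers (172.8 CPM), in T and NK cell markers (85.7 CPM) and in records not aligned (12.02%). Gut epithelium markers stood apart in AngII replicate 2 (806.9 CPM), mural and pericyte markers in AngII replicate 3 (3825 CPM) and exocrine pancreas markers in AngII replicate 4 (124400.0 CPM). Among sham libraries, replicate 1 stood apart in plasma cell markers (282.0 CPM) and replicate 3 in records not aligned (2.52%).

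Among the shares of records that were not counted for a gene, 4 had an AngII library above the highest sham library. Records not aligned were 12.0184% in AngII replicate 1 (highest sham 2.5196%), and records with more than 1 alignment were 12.9856% in AngII replicate 4 (highest sham 9.7902%). Ambiguous records were 1.5809% in AngII replicate 4 (highest sham 1.4981%), and records of low quality were 3.3463% in AngII replicate 3 (highest sham 3.253%).

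The AngII effect differed between mesenteric arteries and aorta (edgeR interaction) for 20 genes that are named in the text or led their lists. The mesenteric effect was lower, on the log2 scale, by -3.29 for Col8a1, -3.07 for P4ha3, -2.38 for the chemokine receptor gene Ccr2, -2.26 for Sctr, -2.14 for Thbs1, -1.92 for Col1a1, -1.78 for Col3a1, -1.77 for the proteoglycan gene Lum, -1.61 for S100b, -1.50 for Timp1 and -1.46 for Rcan1. It was also lower by -1.33 for Sphk1, -1.32 for Tnfrsf11b, -1.27 for Sdc1, -1.11 for Adamts12, -1.10 for Lox and -0.87 for Cdkn1a. It was higher by 2.23 for Scube3, 0.98 for Gucy1a1 and 0.88 for Gucy1b1.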

How the results depend on the processing

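No log2 change of the 52 named genes followed here changed sign under the 32 alternatives, and the cause of each change was not tested. In each of the 52 the AngII and sham libraries did not overlap, so a change of sign was hardly possible. The kept signs therefore say little about other genes. Cd4, outside this set, went from 2.87 to -0.39 without AngII replicate 1. Some list medians did change sign. Without AngII replicate 1 the B cell median went from 1.77 to -0.39 and the T and NK cell median from 1.32 to -0.37. The immediate early and stress median, near 0, went from 0.015 to -0.054. Beside 32 higher and 0 lower genes, scaling by library size alone gave 15 higher. DESeq2 gave 230 and 60, limma voom 197 and 53, and the 8 libraries alone 72 and 6. A lymphoid covariate gave 45 and 1, a gut and pancreas covariate 23 and 0, and an adipocyte covariate 24 and 0. Leaving out libraries with over 10% of records not aligned gave 40 and 2. Leaving out SMC KO-Sphk1 replicate 3 with AngII replicate 1 gave 40 and 1. Alternatives chosen after seeing the data were DESeq2 on the 8 libraries (370 and 118) and, without AngII replicate 1, DESeq2 (158 and 18) and voom (136 and 39). Also chosen then were the replicate block in the 8 libraries alone and edgeR on the 7 libraries left without AngII replicate 1, both given below. Beside the 24 mitotic genes called, the alternatives gave 11 (library size), 53 (DESeq2), 54 (voom) and 37 (8 libraries). They gave 59 with DESeq2 on the 8 libraries, and 43 and 46 with DESeq2 and voom without AngII replicate 1. Mitotic calls were 30 with the lymphoid, 16 with the gut and pancreas and 19 with the adipocyte covariate. They were 26 without the poorly aligned libraries and 26 without the pair of libraries.

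Same-numbered libraries did not deviate together in all pairs (correlations of -0.365, -0.354, 0.418 and 0.431), so the numbers do not establish pairs. With the replicate number as a block, 8 genes were called higher, 7 of them mitotic, and in the 8 libraries alone 0 and 0 (1756 genes at an unadjusted p below 0.05, edgeR).

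The kinetochore median of 1.45 was 1.31 with voom, 1.32 with the lymphoid covariate, 1.246 without poorly aligned libraries, 1.24 without the pair of libraries above and in the 7 libraries left without AngII replicate 1, and 1.255 with DESeq2 without that library. The spindle median of 1.69 was 1.577 with voom, 1.572 with a gut and pancreas covariate and 1.477 with voom without AngII replicate 1, when the cyclin median was 1.449. Sphk1 passed (0.71; adjusted p = 0.017) with DESeq2 on the 8 libraries. The tissue difference of 126 higher and 308 lower became 197 higher with 16 libraries, 320 and 534 with DESeq2, and 188 and 183 with library size alone, which ends the excess of lower effects.

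Leaving out each library in turn gave 8 to 109 genes higher, 0 to 7 lower and 6 to 45 mitotic genes called. Medians ranged from 1.439 to 1.783 (cyclins), 1.24 to 1.591 (kinetochore), 1.577 to 1.718 (spindle), 0.095 to 0.274 (DNA replication), 0.351 to 0.49 (cholesterol) and 0.366 to 0.486 (collagens). Sphk1 ranged from 0.55 to 0.846, and the tissue difference from 56 to 211 higher and 163 to 417 lower. Of 1664 values for 52 named genes under 32 alternatives, 1241 kept their side of the threshold, 299 lost their call and 124 gained it.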
